A study of Mus musculus with 6 samples.

Results

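A set of 10 genes through which cells sense and answer mechanical load was followed in the cells of mouse proximal pulmonary arteries (PAs). The genes were the stretch and flow channel Piezo1, the coactivators Yap1 and Wwtr1 (TAZ), their DNA binding partner Tead1, the YAP and TAZ target genes Ccn1, Ccn2, Ankrd1 and Amotl2, and the flow responsive factors Klf2 and Klf4. They were taken by symbol, and all 10 were found among the 53647 genes of the count tables. Single cell libraries were used, 6 in all, 2 young and 4 old, each from an enzyme digest of the proximal PA. The young libraries, labelled 3m and f3m, came from mice of 3 months. The old libraries were labelled 20m, 24m, m27mo and f28m, from mice of 20, 24, 27 and 28 months. The study used C57BL/6J mice that aged naturally, and the labels name no transgene or treatment. It gives the mice of 20, 24 and 27 months as males, that of 28 months as a female and the young as of both sexes. The study names 3 young mice and the labels do not tie libraries to animals, so each library was taken as 1 sample, and the spread between libraries includes the animal or animals, the digest and the sequencing run.

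In the Hippo pathway, a chain of kinases keeps YAP and TAZ in the cytoplasm, and a stiff matrix or a spread cell shape lets them enter the nucleus, where they act with TEAD factors on matricellular genes such as Ccn1 and Ccn2. This control acts on the proteins, so the mRNA of Yap1 and Wwtr1 is not a measure of their activity. In arteries, Piezo1 opens under shear and stretch in ECs, and steady laminar flow raises Klf2 and Klf4, which hold the endothelium quiescent.

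Barcodes with at least 500 UMIs (unique molecular identifiers, tags that mark single RNA molecules), at least 300 genes and at most 20% mitochondrial UMIs were kept as cells, 935 to 4067 per library before doublets were removed. After clustering without the 10 genes, 13970 cells fell into the 12 marker named classes described here. Levels are CPM, the UMIs of a gene per 1000000 UMIs, both summed over the cells of a class in a library. Of these classes, each with at least 10 cells in 2 or more libraries, SMCs, FBs, macrophages, B cells, T and NK cells, mesothelial cells, neutrophils and erythroid cells had each of their listed markers at the highest level of any class. Blood ECs did so for 5 of 7 markers, lymphatic ECs for 5 of 6, airway epithelial cells for 5 of 8 and monocytes for 2 of 6. Depth differed between libraries, with a median of 801.5 to 841 UMIs per cell in 3m, f3m and 24m, 2162 in 20m, 5465 in f28m and 8150 in m27mo. The libraries 3m, f3m and 24m shared 131 to 215 cell barcodes pairwise, against at most 4 in any other pair, mostly in airway epithelial cells. The library labelled 20m, given as male, held 3113 Xist UMIs beside 77 of Uty and 8488 of Ddx3y, against 230, 2364 and 6272 in m27mo and 21952, 0 and 3 in f28m. The library f3m held 1300 Xist, 171 Uty and 210 Ddx3y UMIs. The markers of both sexes in these 2 libraries do not tell their sex, and nothing below rests on it. In 24m, only 10 cells were classed as SMCs, and their airway epithelial markers summed to 29550 CPM against 39.6 to 1613 in the other SMC libraries. The SMC means and fold changes of the 10 genes are therefore also given without it. SMC values of genes from other lists, and the list medians in SMCs, include 24m. Mesothelial cells of f3m also numbered 10, with 8075 UMIs in all, so their levels rest on few UMIs.

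Yap1, Wwtr1, Tead1, Amotl2, Ccn1 and Ccn2 had means of at most 36 CPM in macrophages, monocytes, B cells, and T and NK cells, and higher ones in ECs, SMCs, FBs, airway epithelial cells and, but for Ccn2 (17.9 CPM, above free RNA in 0 of 6 libraries), mesothelial cells, whereas Piezo1, Klf2 and Klf4 were found on both sides. Some of the higher means were also near free RNA. Ccn2 in lymphatic ECs (67.1 CPM) was above it in 0 of 2 libraries, and Ccn1 in 1 of 2 there and in 2 of 6 in mesothelial cells. Yap1 and Wwtr1 in SMCs and Tead1 in FBs and blood ECs were above it in 3 of 6. Neutrophils and erythroid cells, with 2 libraries each, held means of 131 and 124 CPM of Ccn1 and 167 and 137 CPM of Wwtr1. Klf2 was highest in blood ECs, Klf4 in FBs and blood ECs, Ccn2 and Ankrd1 in SMCs, and Piezo1 in lymphatic ECs and mesothelial cells. Cell classes were drawn on the same cells, so these levels are a description without a test. The ranges of the libraries overlapped between nearly all neighbours in each order. The 3 exceptions were erythroid cells over macrophages for Yap1, airway epithelial cells over B cells for Wwtr1, and blood ECs over monocytes for Tead1. Yap1 in erythroid cells had 1 UMI in 24m and 22.7 CPM in f28m, below the 30.3 CPM of free RNA there. The lowest blood EC value of Tead1, 22.8 CPM in f3m, was 1 UMI and below free RNA (69.9 CPM). Without 24m, the SMC means of 5 libraries were 21.6 CPM for Piezo1, 63.4 for Yap1, 160 for Wwtr1, 96.0 for Tead1, 145 for Klf2, 139 for Klf4, 40.1 for Ankrd1, 69.6 for Amotl2, 584 for Ccn1 and 1504 for Ccn2.

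**Figure D1:**
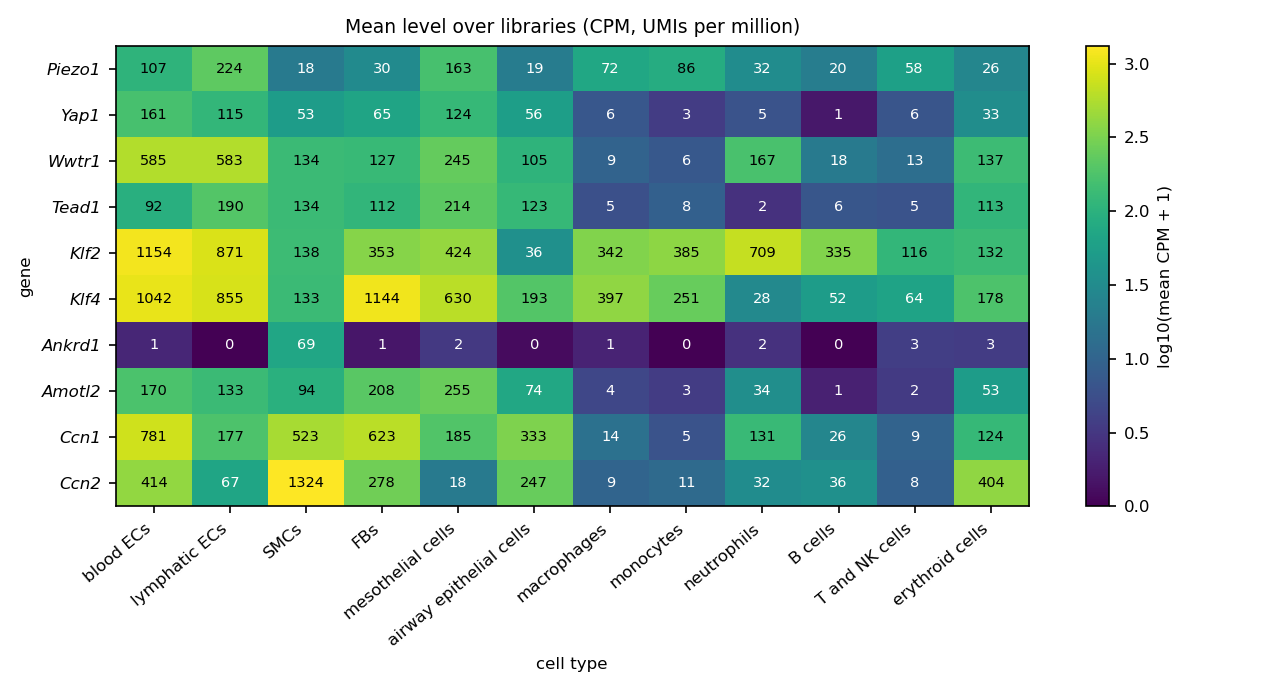
Mean level of each gene (rows) in each cell class (columns), as CPM averaged over libraries with at least 10 cells and colored on a log10(CPM + 1) scale. Klf2 reads 1154 CPM in blood ECs, Ccn2 1324 CPM in SMCs, and Ankrd1 at most 2.79 CPM outside SMCs.

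Piezo1 (ENSMUSG00000014444.18; chromosome 8, 122481698 to 122551329 in RefSeq, build GRCm38.p6) encodes a mechanically gated cation channel. Its mean level was 224 ± 32.9 CPM in lymphatic ECs (SD, n = 2 libraries), 163 ± 58.9 CPM in mesothelial cells (n = 6) and 107 ± 26.8 CPM in blood ECs (n = 6). In blood ECs the libraries 3m, f3m, 20m, 24m, m27mo and f28m had 87.5, 68.4, 139, 127, 98.2 and 123 CPM. Monocytes had 85.6 ± 29.8 CPM (n = 2) and macrophages 72 ± 32.7 CPM (n = 6), with every library of both above its own free RNA, the level in barcodes of 1 to 100 UMIs, which ran from 7.58 to 53.5 CPM for Piezo1. SMCs were last at 18 ± 18.1 CPM (rank 10 without 24m), and only 2 of 6 SMC libraries were above free RNA. Over the 12 classes the genes most like Piezo1 were Klf10, Tnfaip8l3 and Rac1 (r = 0.906, 0.888 and 0.888 on log2(CPM + 10)). These correlations, like those given below for the other genes, are across 12 classes that share libraries and depth.

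Yap1 (ENSMUSG00000053110.14; chromosome 9, 7931999 to 8004638) and Wwtr1 (ENSMUSG00000027803.15; chromosome 3, 57455644 to 57575910) encode YAP and TAZ. Yap1 was highest in blood ECs at 161 ± 85.5 CPM (n = 6), where f3m and 24m held 274 and 267 CPM and the other 4 libraries 87.9 to 124 CPM. Mesothelial cells had 124 ± 68.5 CPM, FBs 65.1 ± 35.3 CPM, airway epithelial cells 55.8 ± 10.1 CPM and SMCs 52.8 ± 44 CPM (n = 6 each). The highest mesothelial value, 248 CPM in f3m, rested on 2 UMIs. In macrophages, monocytes, neutrophils, B cells, and T and NK cells the means were 0.568 to 6.04 CPM, and no library of these classes was above its free RNA.

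Wwtr1 had its highest means in the endothelium. Blood ECs had 578, 981, 293, 563, 544 and 553 CPM in the order of libraries above, and lymphatic ECs 639 and 527 CPM in m27mo and f28m. SMCs had 134 ± 118 CPM and FBs 127 ± 38.6 CPM (n = 6 each), so the lowest blood EC library lay above all FB and SMC libraries. Mesothelial cells had 245 ± 191 CPM (n = 6), and of their libraries only f3m, at 619 CPM from 5 UMIs, reached the range of blood ECs. Neutrophils of 24m read 323 CPM, but from 5 UMIs, while those of f28m had 10.5 CPM. Where at least 10 Yap1 UMIs were counted, there were 3.87 ± 1.78 Wwtr1 UMIs per Yap1 UMI in blood ECs (n = 5), 2.47 ± 0.504 in SMCs (n = 3) and 1.73 ± 0.598 in FBs (n = 4), with overlapping ranges. Tjp1, Nfia and Crip2 were most like Yap1 (r = 0.957 to 0.959), and Osmr, Fbxl7 and Prkd1 most like Wwtr1 (r = 0.925 to 0.962).

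Tead1 (ENSMUSG00000055320.19; chromosome 7, 112679356 to 112906784), the DNA binding partner, was highest in mesothelial cells at 214 ± 50.4 CPM (n = 6), followed by lymphatic ECs at 190 ± 27.3 CPM (n = 2) and SMCs at 134 ± 103 CPM (n = 6). The SMC value of 24m was 321 CPM from 3 UMIs, and without it SMCs, at 96.0 CPM, had rank 6, after airway epithelial cells, erythroid cells and FBs. Blood ECs, with the most Yap1, had rank 7 of 12 at 92.3 ± 51.2 CPM. In macrophages, monocytes, neutrophils, B cells, and T and NK cells its means were 1.76 to 8.08 CPM, with no library above free RNA (28.6 to 115 CPM). Parva, Cttn and Ro60 were most like Tead1 (r = 0.956 to 0.963), Parva and Cttn being an actin linked adhesion adaptor and cortactin.

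**Figure D2:**
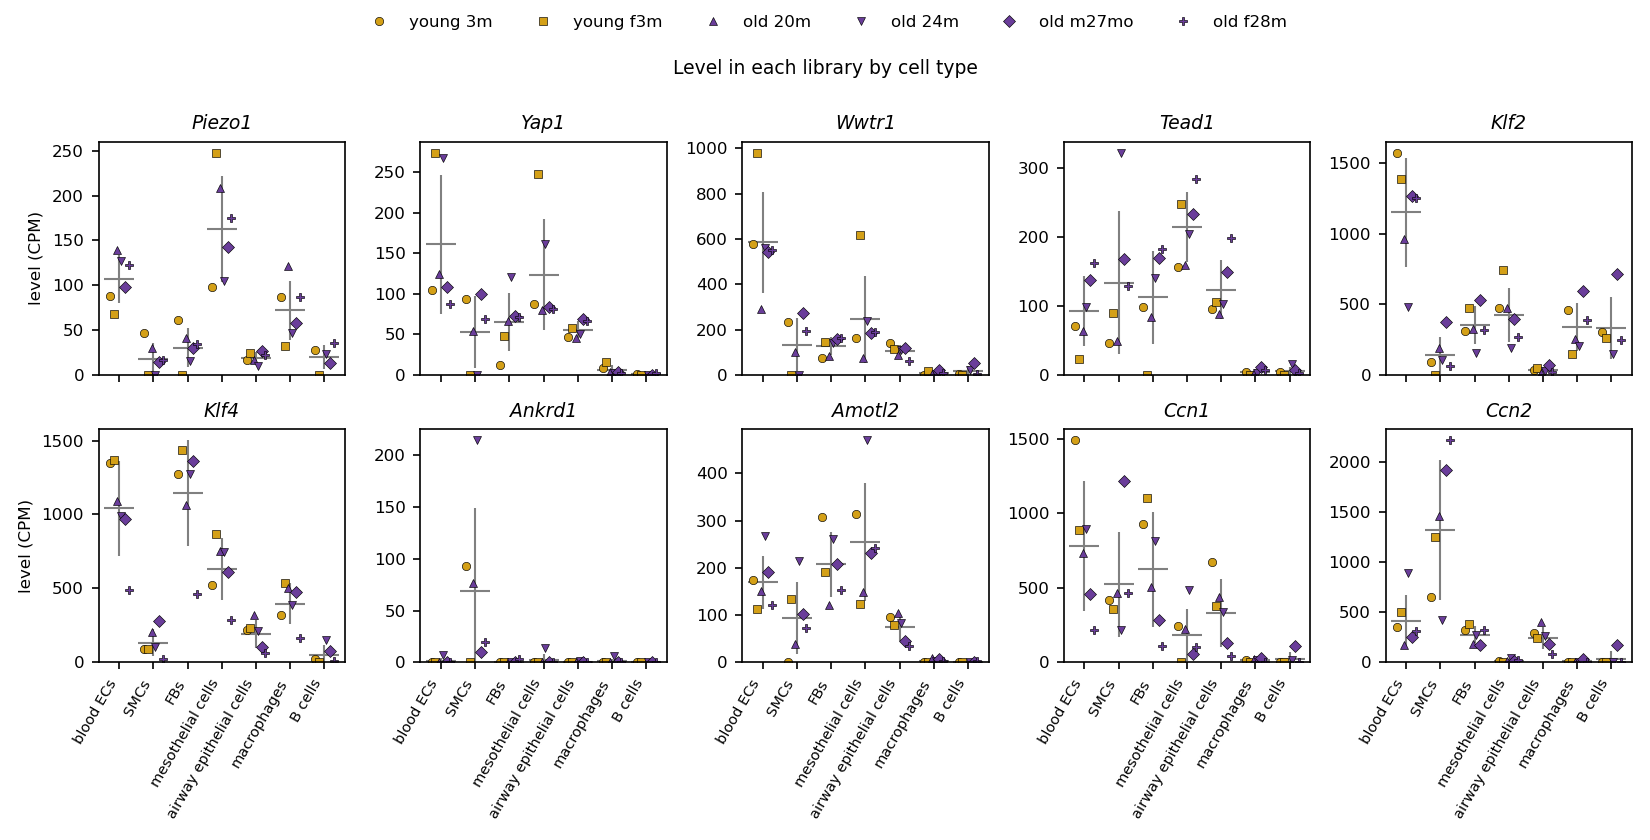
Level of each gene (CPM, linear axis from 0) in each library of 7 cell classes, young libraries in gold and old in purple, with grey bars for the mean ± SD. Yap1, Wwtr1, Tead1, Amotl2, Ccn1 and Ccn2 have means of at most 36 CPM in macrophages and B cells, with B cells of m27mo at 170 CPM of Ccn2, where the Klf2 means are 342 and 335 CPM.

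Ccn1 and Ccn2 encode secreted matricellular proteins, Amotl2 a junction protein that in turn binds and restrains YAP, and Ankrd1 a sarcomere and nuclear ankyrin repeat protein. Promoters were searched for the core of the TEAD site, GGAATG or its reverse complement CATTCC, and for a MEF2 type box, CTANNNNTAG, both strands being covered. RefSeq windows (GRCm38.p6, from 250 bases before to 50 after a start site) were at hand for 8 of the 10 genes, not for Tead1 and Ccn2. The TEAD core was present in 5 of 8, namely Yap1, Wwtr1, Ankrd1, Amotl2 and Ccn1, and in 14.6% of all 27025 windows. The MEF2 type box was present in 1 of 8, Klf2, and in 3.69% of all windows. Members were counted by gene, and a gene can have more than 1 window, as Wwtr1 did, while the share of all windows is by window. The 2 are not like measures. A match is a string of letters and not a measured site. The 250 bases before the start are shown for 3 target genes that shared the core, and for Klf2, which lacked it and held the box. The Amotl2 window lies within the span of the gene given below, so it precedes a start downstream of the gene's first base. TEAD cores are in capitals in the first 3 sequences and the MEF2 type box in Klf2. The regions are chr3:145649986-145650235 (minus strand, Ccn1), chr9:102717554-102717803 (plus strand, Amotl2), chr19:36119845-36120094 (minus strand, Ankrd1) and chr8:72318812-72319061 (plus strand, Klf2).
Ccn1: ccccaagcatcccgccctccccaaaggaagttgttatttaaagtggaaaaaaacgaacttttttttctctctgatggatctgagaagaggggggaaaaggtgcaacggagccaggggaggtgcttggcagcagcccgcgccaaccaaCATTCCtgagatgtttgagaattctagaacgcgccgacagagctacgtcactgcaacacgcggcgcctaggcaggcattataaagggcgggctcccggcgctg
Amotl2: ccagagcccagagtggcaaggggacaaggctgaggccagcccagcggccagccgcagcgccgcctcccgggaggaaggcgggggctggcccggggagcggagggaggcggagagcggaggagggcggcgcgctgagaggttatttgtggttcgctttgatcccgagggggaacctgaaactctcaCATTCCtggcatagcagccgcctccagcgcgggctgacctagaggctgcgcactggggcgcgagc
Ankrd1: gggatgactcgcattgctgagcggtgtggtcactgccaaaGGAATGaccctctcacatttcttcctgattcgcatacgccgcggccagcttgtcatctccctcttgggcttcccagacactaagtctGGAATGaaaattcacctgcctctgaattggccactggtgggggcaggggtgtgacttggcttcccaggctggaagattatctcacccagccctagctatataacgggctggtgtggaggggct
Klf2: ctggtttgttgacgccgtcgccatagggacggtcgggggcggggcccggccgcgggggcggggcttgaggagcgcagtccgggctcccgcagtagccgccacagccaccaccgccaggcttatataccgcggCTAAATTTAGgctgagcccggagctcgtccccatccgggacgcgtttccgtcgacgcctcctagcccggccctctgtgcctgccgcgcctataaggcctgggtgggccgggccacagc
The core began 103 bases before the start in Ccn1 and 65 in Amotl2 (both as CATTCC), and at 210 and 123 bases in Ankrd1 (as GGAATG). The box in Klf2 began 118 bases before the start.

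Ccn2 (ENSMUSG00000019997.12; chromosome 10, 24595442 to 24598683) was the target gene of SMCs. Its SMC level was 652 CPM in 3m, 1255 in f3m, 1466 in 20m, 428 in 24m, 1927 in m27mo and 2219 in f28m, each above the free RNA of its library. Young and old SMCs overlapped, and 24m, which rested on 4 UMIs, was the lowest. Blood ECs had 414 ± 260 CPM and FBs 278 ± 82 CPM (n = 6 each). Erythroid cells had 404 CPM (n = 2), from 261 UMIs in f28m, a level of 456 CPM beside 306 CPM in the free RNA of that library, and 8 UMIs in 24m, 352 CPM beside 51.2 CPM. Atp8b1, Prdm16 and Pam were most like Ccn2 (r = 0.881 to 0.947).

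Ankrd1 (ENSMUSG00000024803.10; chromosome 19, 36111965 to 36119844) was sparse. In SMCs it read 93.1 CPM in 3m, 0 in f3m, 76.8 in 20m, 214 in 24m, 10.3 in m27mo and 20.1 in f28m, and the values of 3m and 24m rested on 2 UMIs each. Each of the 5 SMC libraries with a UMI was above its free RNA. In all other classes the mean was at most 2.79 CPM, and B cells, monocytes and lymphatic ECs held no UMI. In 24m the free RNA itself held 125 CPM of Ankrd1, against 1.57 to 38.4 CPM in the other libraries. Its likeness over classes was to Pln, the cardiac and smooth muscle gene of phospholamban, and to the unannotated Gm30694 and Gm43085 (r = 0.985 to 0.987), and this rests on SMCs as the only class with a level.

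Ccn1 (ENSMUSG00000028195.5; chromosome 3, 145646971 to 145649985) was broad, with 781 ± 435 CPM in blood ECs, 623 ± 387 in FBs, 523 ± 352 in SMCs and 333 ± 227 in airway epithelial cells (n = 6 each). Without the barcodes that libraries shared, the airway epithelial mean was 409 CPM. Amotl2 (ENSMUSG00000032531.16; chromosome 9, 102717091 to 102733418) ran from 255 ± 126 CPM in mesothelial cells and 208 ± 68.5 in FBs to 170 ± 56.3 in blood ECs and 93.7 ± 75.6 in SMCs (n = 6 each). Both were below free RNA in every macrophage, monocyte, B cell, and T and NK cell library. The highest of these for Ccn1 was 109 CPM in B cells of m27mo, from 16 UMIs, and smooth muscle markers summed to 1778 CPM in those cells against at most 233 CPM in B cells of the other libraries. Among the 8472 genes compared, Ccn1 was most like Rbms3, Pam and its fellow target Amotl2 (r = 0.938, 0.911 and 0.906), and Amotl2 was most like Fmo2, Rbms3 and Nckap1 (r = 0.953 to 0.961).

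Klf2 (ENSMUSG00000055148.8; chromosome 8, 72319062 to 72321654) had its highest mean in blood ECs, 1154 ± 387 CPM (n = 6), with 1575 CPM in 3m, 1391 in f3m, 963 in 20m, 478 in 24m, 1267 in m27mo and 1252 in f28m. The library 24m was lowest. Lymphatic ECs had 791 and 951 CPM. Klf2 was above free RNA in 6 of 6 macrophage, 5 of 5 B cell and 3 of 5 T and NK cell libraries, with means of 342 ± 171, 335 ± 220 and 116 ± 102 CPM. The margin was small in macrophages of 20m, 253 against 193 CPM, and in B cells of f28m, 251 against 188 CPM. The f28m neutrophils read 1288 CPM from 367 UMIs, level with blood ECs of that library, and with cells pooled over libraries neutrophils ranked first. Airway epithelial cells were lowest, at 35.7 ± 21.7 CPM, and no library of them exceeded free RNA. Tmod3 and Zmiz1 were among the 3 genes most like Klf2 (r = 0.864 and 0.845).

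Klf4 (ENSMUSG00000003032.9; chromosome 4, 55527137 to 55532475) was as high in FBs as in blood ECs, 1144 ± 357 and 1042 ± 320 CPM (n = 6 each). FB libraries in the order 3m to f28m had 1272, 1433, 1065, 1273, 1360 and 461 CPM, so f28m alone was low. The same library was lowest in blood ECs, SMCs, mesothelial cells, airway epithelial cells and macrophages. SMCs had 133 ± 92.6 CPM. Lima1, Lrrc58 and Sulf2 were most like Klf4 (r = 0.926 to 0.958).

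Within the endothelium the genes differed between clusters of the same library, which could be compared in m27mo and f28m. The main cluster of blood ECs was led by Vwf and Ptprb (222 and 539 cells), a second by Gpihbp1, Fabp4 and Cd36 (26 and 175 cells), a lymphatic one held 25 and 65 cells, and the cluster that held most ECs of the other libraries, led by Cytl1 and Vwf, had 44 and 84 cells of these. Ccn2 was 278 and 380 CPM in the first, 46.5 and 20 CPM in the second, 44.3 and 89.8 CPM in the lymphatic cluster, and 98.8 and 182 CPM in that led by Cytl1. Free RNA held 302 and 306 CPM of Ccn2 in m27mo and f28m, so only the first cluster of f28m lay above it. Ccn1 was also higher in the first than the second, 486 against 151 CPM in m27mo and 232 against 160 CPM in f28m, with 544 and 169 CPM in the cluster led by Cytl1. Klf4 was higher in the second than the first in both libraries, 1231 against 947 and 893 against 416 CPM. Immediate early genes, described below, summed to 13260 CPM in the second and 9295 in the first in m27mo and to 4724 and 3397 CPM in f28m, and their part in the Klf4 levels was not tested. Klf2 went 1115 against 1294 CPM in m27mo and 1890 against 1129 CPM in f28m, and so had no common direction. Piezo1 was 96.6 and 120 CPM in the first, 247 and 200 CPM in the lymphatic cluster, and 49.4 and 52.0 CPM in that led by Cytl1. These are 2 libraries, and no test was made.

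**Figure D3:**
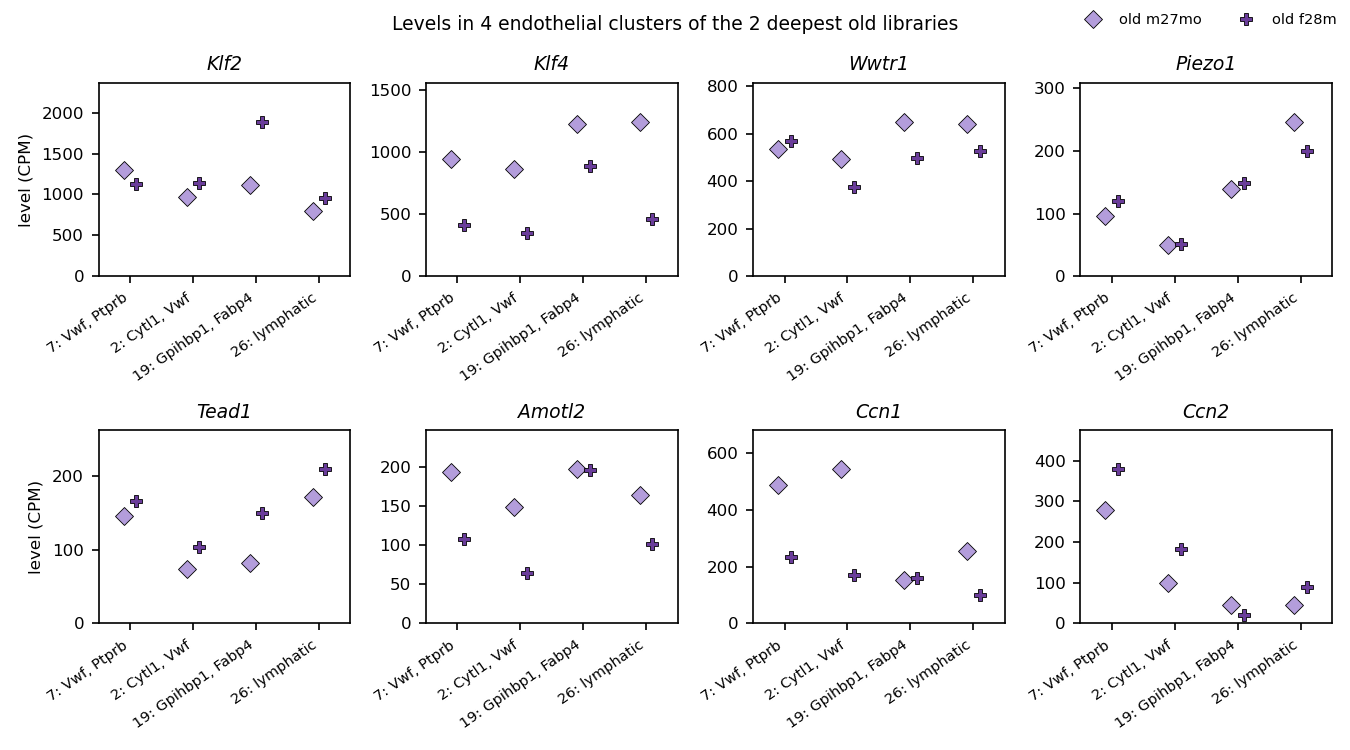
Level of 8 genes (CPM, linear axis from 0) in 4 endothelial clusters, named by number and leading genes, of the old libraries m27mo (diamonds) and f28m (plus signs). Ccn2 is highest in the cluster led by Vwf and Ptprb (278 and 380 CPM, beside 302 and 306 CPM in free RNA). Piezo1 is highest in the lymphatic cluster in both.

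Old and young were compared next, the question for which the series was made. No member passed an adjusted p under 0.05 in FBs, SMCs, ECs, macrophages or B cells (edgeR's quasi-likelihood test over all genes, Benjamini-Hochberg adjustment). The tests covered 9, 10, 9, 3 and 2 of the 10 genes in that order, the rest having too few counts. The count was also 0 by DESeq2. At an unadjusted p under 0.05 there was 1 member in FBs (Yap1), 1 in SMCs (Klf2) and 0 in the other 3 classes. Over all genes tested, the share called was 0.0455% in FBs, 0.0957% in SMCs and 0% in ECs, macrophages and B cells, so very few genes of any kind passed with 2 young libraries. The share at an unadjusted p under 0.05 was 6.9% in FBs, 7% in SMCs, 6.39% in ECs, 5.13% in macrophages and 5.61% in B cells. T and NK cells were not fitted, since f3m held none. Fold changes are old over young and log2, from a fit that weighs libraries by depth. The median of all genes was above 0 in each class, 0.25 in FBs, 0.55 in SMCs, 0.21 in ECs, 0.07 in macrophages and 0.12 in B cells, and in SMCs 0.14 without TMM scaling. Old and young cells of a class often lay in different clusters. ECs of 3m, f3m, 20m and 24m were mostly in the cluster led by Cytl1 and Vwf and those of m27mo and f28m in those led by Vwf and Ptprb or by Gpihbp1. FBs of the first 4 were in a cluster led by Gsn and Dcn and those of m27mo and f28m in another led by Dcn and Clec3b. Young SMCs lay in a shallow cluster led by Acta2 and Tagln, with 148 and 115 cells of m27mo and f28m, while most SMCs of 20m, m27mo and f28m were in deeper ones. Macrophages of 3m, f3m and 24m were in clusters led by Cxcl2 and Prg4, those of m27mo and f28m in 1 led by C1qa and Mrc1, and those of 20m in a cluster of their own.

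In ECs, blood and lymphatic together, the old libraries all lay below the young ones for 4 members and above them for 1, although no member passed the test. Over all genes tested, 7.69% lay lower without overlap and 12.4% higher. Ccn1 was 1488 CPM in 3m and 1008 in f3m, against 740 in 20m, 885 in 24m, 434 in m27mo and 203 in f28m. Its fold change was −1.04 ± 0.60 (log2 ± SE; edgeR, adjusted p = 0.838). Klf4 was 1348 and 1344 CPM in the young libraries and 1082, 982, 1004 and 488 CPM in the old ones in that order (−0.52 ± 0.50, adjusted p = 0.913). Klf2 had 1575 and 1367 CPM when young and 951, 481, 1205 and 1212 CPM when old (−0.57 ± 0.49, adjusted p = 0.906). Wwtr1 had 578 and 1008 CPM against 295, 557, 556 and 550 CPM (−0.65 ± 0.46, adjusted p = 0.855). Piezo1 was the one gene higher in all old libraries, with 87.5 and 67.2 CPM against 144, 125, 118 and 133 CPM (0.81 ± 0.53, adjusted p = 0.851), on 8 young UMIs in all. Lymphatic ECs, the class with the highest Piezo1 mean, numbered 0 cells in 3m, 1 in f3m, 9 in 20m, 2 in 24m, 25 in m27mo and 65 in f28m. Blood ECs alone read 87.5 CPM of Piezo1 in 3m and 68.4 in f3m, against 98.2 to 139 CPM in old libraries. Their Piezo1 fold change was 0.68 ± 0.56 (edgeR, adjusted p = 0.923). Of the members, Tead1 had the largest fold change in ECs, 1.32 ± 0.67 (adjusted p = 0.823), on 5 young UMIs. Its levels in 3m, f3m and 20m, 70.0, 22.4 and 63.5 CPM, were below the free RNA of these libraries, 115, 69.9 and 83.8 CPM. Within the EC cluster that all 6 libraries shared, Klf4 was 1376 and 1410 CPM when young against 351 to 1090 CPM when old, while for Ccn1 the ranges overlapped, 893 to 1519 against 169 to 897 CPM. For Piezo1 that cluster had 89.4 and 70.5 CPM when young and 138, 130, 49.4 and 52.0 CPM when old, so that m27mo and f28m lay below both young libraries. Cells of m27mo and f28m in it held 40473 and 76905 UMIs in all, and young ones 55946 and 42553, so these Piezo1 levels rest on few UMIs.

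In FBs, Ccn1 again lay lower in every old library, and Yap1 lay higher. Ccn1 was 926 and 1099 CPM in 3m and f3m and 502, 817, 284 and 110 CPM in 20m, 24m, m27mo and f28m (−1.02 ± 0.72; edgeR, adjusted p = 0.818), and its fold change was −1.62 without 24m (adjusted p = 0.534). Over all genes tested in FBs, 7.69% lay lower without overlap and 17% higher, beside 1 of 9 tested members each way. These counts are no result about the members. Yap1 was 12.4 and 47.8 CPM against 66.6, 120, 72.1 and 71.5 CPM (2.03 ± 0.89; edgeR, adjusted p = 0.721). Each young FB library held 1 Yap1 UMI. Yap1 thus passed the filter on low counts only through old libraries, and the filter favoured a higher old level. The pooled ratio of old to young was 3.7 with a 95% interval of 1.02 to 30.6 for counting error only. In the FB cluster that all 6 libraries shared, Yap1 was 13.7 and 47.8 CPM when young and 63.0, 131, 27.8 and 18.8 CPM when old, and so overlapped, while Ccn1 was 943 and 1099 CPM when young and 94.2 to 818 CPM when old. Cells of m27mo and f28m in that cluster held 36019 and 53085 UMIs in all, so the overlap in Yap1 rests on very few UMIs on both sides. Yap1 had a fold change of 0.43 (edgeR, adjusted p = 0.991) once a small cluster led by Cxcl13 and Enpp2, mostly of 3m, was counted with the FBs. Tead1 went from 98.8 and 0 CPM to 83.2, 140, 170 and 182 CPM (1.06 ± 0.68, adjusted p = 0.797). Klf4 (−0.20 ± 0.49) and Klf2 (−0.05 ± 0.50) had fold changes under their errors, as did Ccn2 (−0.39 ± 0.48), Amotl2 (−0.41 ± 0.52) and Piezo1 (−0.56 ± 0.77), and Wwtr1 had 0.62 ± 0.58 (edgeR, adjusted p from 0.883 to 0.9998). Ankrd1 had too few counts to be tested.

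In SMCs, where young cells numbered 24 and 32, all 10 members had fold changes above 0 with TMM scaling and 8 without it (Piezo1 and Ankrd1 turned to −0.36 and −0.46), and young and old overlapped for each, while 17.3% of all genes tested did not overlap in one direction or the other. With TMM 7 lay above the class median, and 71.1% of all genes tested were above 0. Klf2 was 93.1 and 0 CPM in 3m and f3m against 192, 107, 372 and 65.7 CPM in 20m, 24m, m27mo and f28m (2.51 ± 1.16; edgeR, adjusted p = 0.665). The young side held 2 UMIs, for a pooled ratio of 6.62 with a counting interval of 1.83 to 54.7. Only 3 of 6 SMC libraries were above their free RNA for Klf2. Free RNA held 46.9 and 71.3 CPM in 3m and f3m, and 193, 56.0, 190 and 188 CPM in the old libraries in the same order. Without 24m the Klf2 fold change was 2.64 (edgeR, adjusted p = 0.57). Ccn2 had a fold change of 1.08 ± 0.90 (adjusted p = 0.81) with 24m and 1.37 without it (edgeR, adjusted p = 0.57). Ccn1 was 419 and 359 CPM against 463, 214, 1216 and 465 CPM, a single high library (1.04 ± 0.90, adjusted p = 0.813, and 1.29 without 24m, adjusted p = 0.578). Ankrd1 changed sign when 24m was left out, from 0.09 to −0.13. Yap1, Wwtr1, Tead1, Klf4 and Amotl2 had 0.54 to 1.27 (SE 0.953 to 1.15, adjusted p 0.792 to 0.968), and Piezo1 0.12 ± 1.53, on 1 young UMI. Without 24m these were 1.13 for Yap1, 1.14 for Wwtr1, 1.15 for Tead1, 1.35 for Klf4, 0.48 for Amotl2 and 0.10 for Piezo1 (edgeR, adjusted p 0.689 to 0.9994). Within m27mo, the larger SMC cluster (1940 cells) held 391 CPM of Klf2, 293 of Klf4 and 1268 of Ccn1, against 138, 102 and 618 CPM in the other main cluster (259 cells), while Ccn2 was 1951 and 1700 CPM. Immediate early genes summed to 16740 CPM in the first and 6724 CPM in the second, and their part was not tested.

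In macrophages 3 members were tested. Klf2 was 463 and 147 CPM when young and 253, 204, 595 and 388 CPM when old (0.07 ± 0.58, adjusted p = 0.999). Klf4 (−0.25 ± 0.59) and Piezo1 (0.13 ± 0.57) were as flat, with adjusted p of 0.959 and 0.99 (edgeR). In B cells, where 20m had 7 cells and was left out, Klf2 had 0.35 ± 0.74 and Klf4 1.48 ± 1.30 (adjusted p = 0.991 and 0.98, 2 young against 3 old libraries).

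**Figure D4:**
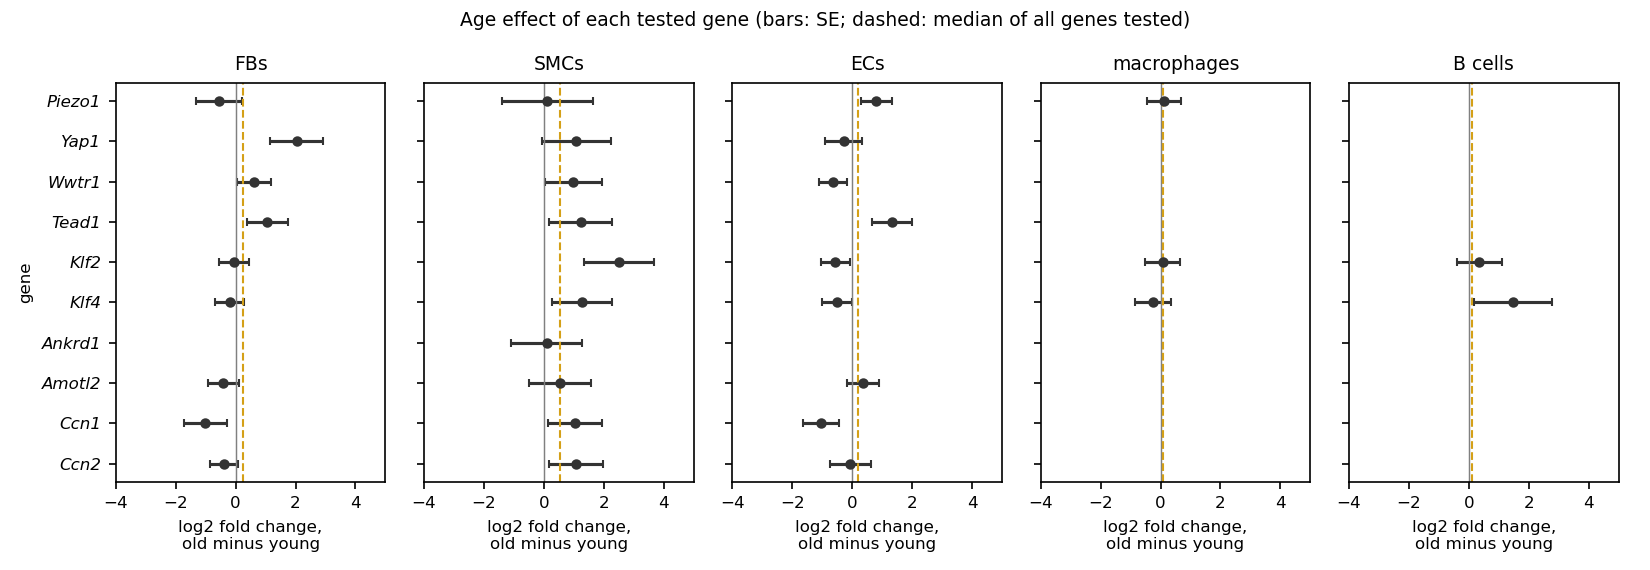
Fold change of each tested gene (log2, old minus young, points with SE bars) in 5 cell classes, with the median of all genes tested as a dashed line. Ccn1 is at −1.04 in ECs and −1.02 in FBs and at 1.04 in SMCs, and no point passes an adjusted p under 0.05.

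The age effect was also compared between classes, with the library as a block. Ccn1 had an effect 2.39 ± 0.77 higher (log2 ± SE) in SMCs than in FBs (edgeR, adjusted p = 0.963), and 2.38 ± 0.82 higher in SMCs than in ECs (adjusted p = 0.701). Klf2 had an effect lower in ECs than in SMCs by 2.8 ± 1.09 (adjusted p = 0.701), on 2 young SMC UMIs and 0 CPM in f3m. Yap1 and Wwtr1 had effects lower in ECs than in FBs (differences −2.16 ± 0.88 and −1.07 ± 0.47, adjusted p = 0.712 and 0.751). Yap1 in FBs had 2 young UMIs and passed the filter on low counts only through old libraries. The filter thus favoured a higher Yap1 effect in FBs, and this Yap1 difference is no result about the classes. None of the 36 member tests over 6 pairs of classes passed, and 5 had an unadjusted p under 0.05. These 5 include the Klf2 and Yap1 differences, with the limits just given. Over all genes tested, the share with an adjusted p under 0.05 was 0.0179% for SMCs against FBs, 0.0794% for ECs against FBs, 0.0434% for macrophages against SMCs and 0% for the other 3 pairs. At an unadjusted p under 0.05 the share was 4.6% for SMCs against FBs, 6.35% for ECs and 6.28% for macrophages against FBs, 6.71% for ECs and 7.05% for macrophages against SMCs, and 6.59% for macrophages against ECs.

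Genes of the immediate early response, which is also known to rise while tissue is digested, differed between libraries and are given beside Ccn1, Klf2 and Klf4. The list holds 18 genes, Fos, Egr1 and Atf3 among them. Its summed level in ECs was 28670 CPM in 3m, 24220 in f3m, 21880 in 20m, 21640 in 24m, 9757 in m27mo and 3514 in f28m, and Ccn1 had the same order but for 20m and 24m, which changed places. In FBs it was 16780 and 16530 CPM in the young libraries, 11040 to 18000 CPM in 20m, 24m and m27mo and 3335 CPM in f28m. The library f28m was lowest in SMCs and macrophages as well, at 3270 and 3810 CPM, and m27mo, with the highest SMC level of Ccn1, Klf2 and Klf4, had the highest sum in SMCs, 15960 CPM. The part of this response in the levels of Ccn1, Klf2 and Klf4 was not tested. Of the listed genes, 17 were tested in ECs, of which 0 passed, 14 had a fold change below 0 and 3 above, with a median of −0.39 beside 0.21 for all genes. In FBs the median of 18 was −0.15, in SMCs that of 17 was 0.76, in macrophages that of 18 was −0.29 and in B cells that of 14 was 1.05, with 0 passing in each (edgeR, unadjusted p under 0.05 in 0, 0, 0 and 4 genes, and 0 in ECs). The 2 with the smallest p in ECs were Fosb (−1.79 ± 0.99) and Dusp1 (−1.04 ± 0.59), and in B cells Jun (3.13 ± 0.88) and Egr1 (2.52 ± 0.85), with adjusted p of 0.839, 0.839, 0.485 and 0.57 by edgeR.

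**Figure D5:**
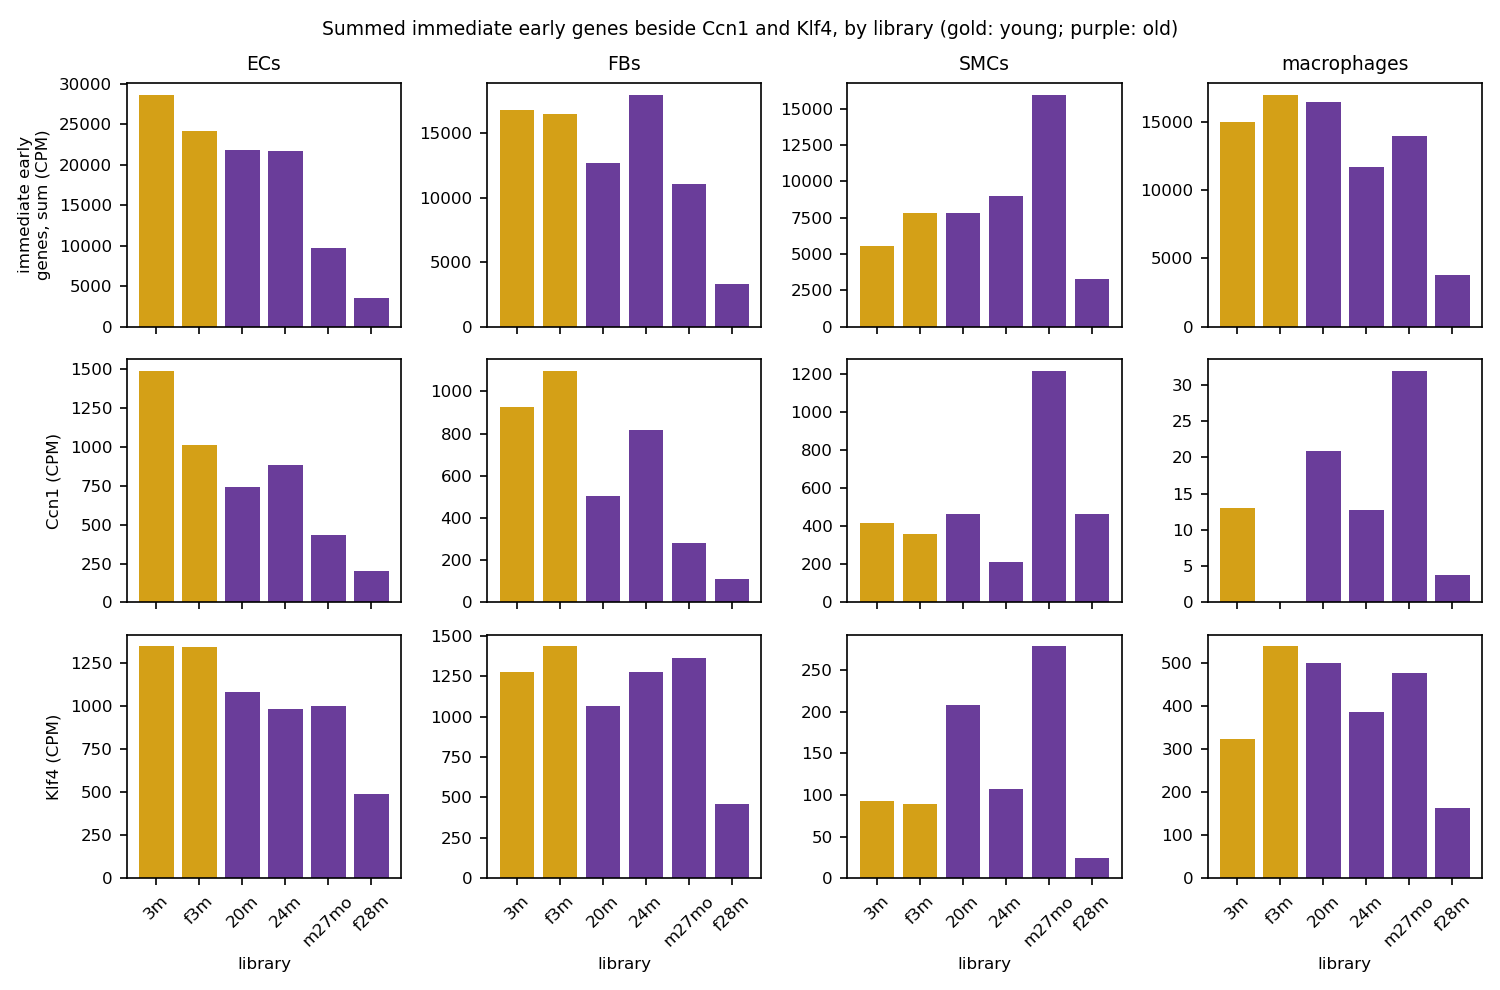
Bars give, for each library, the summed level of 18 immediate early genes (top row, CPM), Ccn1 (middle row, CPM) and Klf4 (bottom row, CPM) in 4 cell classes, young libraries in gold and old in purple. In ECs the sum falls from 28670 CPM in 3m to 3514 CPM in f28m beside 1488 and 203 CPM of Ccn1.

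The libraries 3m, f3m and 24m, which shared barcodes, were also set apart as a covariate, so that old and young are compared within that set. The Ccn1 fold change was then −0.37 in ECs, 0.02 in FBs and −1.30 in SMCs (edgeR, adjusted p = 0.992, 1 and 0.76). For Yap1 in FBs it was 2.79 (edgeR, adjusted p = 0.906). The only old library in that set is 24m, so these values rest on it, and in SMCs it held 2 Ccn1 UMIs.

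Genes around the members, from lists of the same pathways, were taken from 5 lists, and no gene of any list passed in any class by edgeR or by DESeq2. Of 21 genes of the Hippo pathway core, the kinases, their adaptors and the other TEAD and VGLL factors, 13 were tested in FBs, 15 in SMCs, 13 in ECs, 11 in macrophages and 9 in B cells. Of these, 0, 3, 1, 0 and 1 had an unadjusted p under 0.05, beside 6.9%, 7%, 6.39%, 5.13% and 5.61% of all genes tested. The 1 in ECs and the 1 in B cells were Stk3, and Vgll3 was among the 3 in SMCs. Both passed the filter in these classes only through old libraries, so the filter favoured a higher old level. The list medians were 0.27, 0.72, 0.31, 0.17 and 0.38 in the same order. Those of all genes tested were 0.25, 0.55, 0.21, 0.07 and 0.12. Stk3, the kinase MST2, had 1.78 ± 0.81 in ECs (adjusted p = 0.779), 0.98 ± 0.64 in FBs (adjusted p = 0.804) and 1.65 ± 0.75 in B cells (adjusted p = 0.853). In ECs it was 70 and 0 CPM in the young libraries and 68.8, 112, 150 and 183 CPM in the old ones, so that 3m and 20m overlapped. Tead3 in SMCs had −1.61 ± 0.80 on 9 young UMIs (adjusted p = 0.665), and Vgll3 there had 1 young UMI, with a pooled ratio of 7.51 and a counting interval of 1.35 to 297. Both read 0 CPM in SMCs of 24m.

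Of 17 other YAP, TAZ and TEAD targets, 9 were tested in FBs, 10 in SMCs and 6 in ECs, and their medians were 0.07, 1.52 and 0.28, beside 0.25, 0.55 and 0.21 for all genes tested. An unadjusted p under 0.05 was found for 1, 4 and 0 of them, beside 6.9%, 7% and 6.39% of all genes tested. Axl, a receptor tyrosine kinase, had 93.1 and 0 CPM in young SMCs, from 2 UMIs, and 192, 0, 276 and 197 CPM in old ones (2.53 ± 1.16, adjusted p = 0.665). Asap1, an adhesion linked GTPase activating protein, was at 0 in both young libraries and at 82.9 to 189 CPM in the old ones, at least 2.66-fold higher against a floor of 3 counts over the young group. A tested gene needed counts in 3 libraries and only 2 were young, so a gene absent from both could enter only through old libraries. The direction of such a gene was set by the filter. In FBs Gadd45a, a stress and cell cycle gene, was 61.8 and 95.6 CPM when young, on 7 UMIs, and 11.2 to 50.1 CPM when old (−1.94 ± 0.87, adjusted p = 0.723). Of 20 other mechanosensors, 13, 16 and 14 were tested in FBs, SMCs and ECs. Their medians were 0.03, 0.14 and 0.09, beside 0.25, 0.55 and 0.21 for all genes tested. An unadjusted p under 0.05 was found for 1, 0 and 1 of them, beside 6.9%, 7% and 6.39% of all genes tested. The 1 in FBs was the channel Tmem63b, at 0 in both young libraries, so the filter set its direction. Trpv4, a stretch and osmosensitive cation channel of ECs, was 193 and 67.2 CPM in young ECs, on 14 UMIs, and 41.8 to 66.4 CPM in old ones (−1.18 ± 0.53, adjusted p = 0.779). Of 7 targets of KLF2 and KLF4 in endothelium, all 7 were tested in ECs, with 5 fold changes above 0, a median of 0.42 and 0 at an unadjusted p under 0.05. The 2 with the smallest p were Slco2a1, a prostaglandin transporter (0.55 ± 0.47, adjusted p = 0.901), and Cyp1b1 (0.95 ± 0.93, adjusted p = 0.913).

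Other genes with the smallest p of their list are given by value. In ECs, Limd1, an adaptor that restrains the LATS kinases, rested on 1 young UMI (pooled ratio 4.3, counting interval 0.766 to 171). Pkd1, the polycystin of flow sensing cilia, was 228 and 202 CPM in young ECs, on 22 UMIs, and 65.9 to 155 CPM in old ones (−0.89 ± 0.46, adjusted p = 0.823), lower in each old library. Ptpn14 had 0.48 ± 0.45 and Myof −0.43 ± 0.43 (adjusted p = 0.91 and 0.913). In FBs, F3 (tissue factor) had 1.87 ± 0.96 on 2 young UMIs (pooled ratio 4.52, interval 1.25 to 37.4, adjusted p = 0.766), and Cav1, of caveolae, had 1 young UMI (pooled ratio 4.47, interval 0.798 to 177). Tmem63b, a mechanically gated channel, was at 0 in both young FB libraries and 20.1 to 36.7 CPM in the old ones, at least 1.13-fold higher against a floor of 3 counts over the young group. Vgll3 had 0.79 ± 0.54 in FBs, Cyp1b1 0.53 ± 0.61 and Thbd 0.19 ± 0.45 (adjusted p 0.815 to 0.981). In SMCs, Pkd1 was 512 and 314 CPM when young, on 18 UMIs, and 0 to 208 CPM when old (−0.96 ± 0.79, adjusted p = 0.807), with 24m at 0. Trpv2 was at 0 in both young SMC libraries and in 24m and at 32.3 to 42.9 CPM in the other 3. Tmem63b in FBs and Trpv2 in SMCs passed the filter only through old libraries, which set their direction. Tead1, Stk3 and Limd1 in ECs, Yap1, F3 and Cav1 in FBs, and Vgll3 and Piezo1 in SMCs also passed only through old libraries. Stk3 and Klf4 in B cells did so too. Their young UMIs were too few to reach 5% of the cells in either young library, so the filter favoured a higher old level. In macrophages, where 6 other targets and 13 other mechanosensors were tested with medians of 0.43 and 0.44, P2rx4, an ATP gated channel, was 54.4 and 32.6 CPM when young and 50.9 to 305 CPM when old (1.56 ± 0.73, adjusted p = 0.795). In B cells, 6 other mechanosensors had a median of 0.54, and Asap1, the only other target tested, had 1.43 ± 0.78 (adjusted p = 0.923). No gene of these lists had an unadjusted p under 0.05 in macrophages, and in B cells Stk3 alone did outside the immediate early list.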

How the data were processed

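Proximal PA digests of young and old mice were sequenced as 6 10x libraries. The authors deposited raw UMI counts per gene and barcode. The submitters' processing notes name cutadapt, STAR, STARsolo and GRCm38.p6, and the study used GENCODE release M22. Barcodes were filtered at 500 UMIs, 300 genes and 20% mitochondrial UMIs, and likely doublets (0.963% to 3.03% of cells per library) were removed with Scrublet through scanpy 1.11.5. Cells were clustered on 2000 variable genes without the 10 members (40 principal components, 15 neighbours, Leiden resolution 1). A cluster was named from at least 3 raised markers. Clusters led by markers of another class were left out, namely 1 of FBs and 1 of B cells, and 356 cells stayed unnamed. Total UMIs ran from 6355125 to 50436562 per library, and low levels in the shallow libraries rest on few UMIs.

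Counts were summed per library and class. Libraries with at least 10 cells entered, so that each library was a replicate. Genes were tested where more than 5% of the cells in each of 3 or more libraries held a count, with edgeR 4.0.16 (R 4.3.3; TMM, robust quasi-likelihood fit) without a covariate, and adjusted over all genes tested. As only 2 libraries were young, a gene found in the young alone could not be tested. The mixed model named in the study's methods was not refitted. The age effect of 2 classes was compared as an interaction with the library as a block. Counting intervals are exact 95% binomial ones and cover counting error only. Fits were tested on simulated data. Alternatives were DESeq2 1.42.0, other filters, scaling, cell thinning, clustering, a covariate, and each library left out in turn. Keeping all clusters, levels without shared barcodes, SMC levels without 24m, and both alternatives of the interaction were chosen after seeing the data. From each list every gene that passed was to be named and otherwise the 2 with the smallest p per class, and for each member the 3 genes most alike over classes. One gene that this rule names for Klf2 is not reported here. The members and lists were chosen with earlier results of these data known. Promoter sequences are from RefSeq (GRCm38.p6).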

Additional observations from a re-analysis of the deposited data

Results flagged for a closer look

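Within groups of 4 old libraries, 1 library stood far from the other 3 by Dixon's criterion in 4 of 31 member and class groups. The nominal rate of about 1 in 20 holds for independent normal values, while these groups share libraries of unlike depth. The share over all genes by the same rule is not given, so the count is no result about the members. Yap1 in old FBs was highest in 24m at 120.3 CPM, against 66.6 to 72.1 CPM in the others. Wwtr1 in old ECs was lowest in 20m at 295.4 CPM, against 550 to 557 CPM. Klf4 in old ECs was lowest in f28m at 487.5 CPM, against 982 to 1082 CPM, and the same library had the lowest summed level of immediate early genes in ECs, 3514 CPM. Ccn2 in old ECs was highest in 24m at 884.8 CPM, against 167 to 286 CPM. Erythroid markers summed to 27800 CPM in the ECs of 24m, against 23.8 to 6585 CPM in those of the other libraries. The part of these values in the levels was not tested.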

How the results depend on the processing

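No member was called in any class under any of the 87 alternative fits, which held 560 member tests with a smallest adjusted p of 0.282, but signs were less stable: 12 of 33 member and class pairs kept theirs in all fits. The number of genes called was 3 of 6596 tested in FBs, 7 of 7312 in SMCs and 0 in ECs, macrophages and B cells. With cells thinned to 500 UMIs it was 1 of 1796 in FBs and 2 of 1768 in SMCs. Without a filter on low counts it was 10, 24, 9, 39 and 15 in the order FBs, SMCs, ECs, macrophages, B cells. The genes tested then numbered 24161, 27563, 24449, 24105 and 23835, so these counts are not on the same base. In the other fits the number called was as follows. With DESeq2 it was 0 in SMCs and 5 in macrophages, and without TMM 12 in SMCs and 26 in B cells. With the covariate for libraries that share barcodes it was 0 in FBs and SMCs and 5 in B cells. It was 7 in B cells without shared barcodes, 1 in FBs with all clusters kept, and 0 in SMCs with at least 20 cells per library. Leaving out 1 library gave 0 to 3 in FBs, 0 to 7 in SMCs and 0 to 111 in B cells, the last without 24m. The causes were not tested.

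Old minus young log2 values that changed sign are given here. With the covariate they were 0.24 for Klf4, 0.23 for Amotl2 and 0.023 for Ccn1 in FBs, −9.43 for Piezo1, −10.42 for Yap1, −11.74 for Wwtr1, −0.21 for Klf4, −1.30 for Ccn1 and −1.60 for Ccn2 in SMCs, 0.66 for Yap1 and 1.20 for Ccn2 in ECs, −0.45 for Piezo1 and −0.55 for Klf2 in macrophages, and −0.81 for Klf2 in B cells. SMCs of 24m held 0 UMIs of Piezo1, Yap1 and Wwtr1, so those 3 SMC values have no lower bound and are not effect sizes. Without a filter the values that changed sign were 0.29 for Klf2 and 0.085 for Klf4 in FBs, 0.070 for Yap1 and 0.24 for Ccn2 in ECs, and 0.092 for Klf4 in macrophages. With all clusters kept they were 0.11 for Klf2, 0.036 for Amotl2 and 0.046 for Ccn2 in FBs. Without TMM they were −0.36 for Piezo1 and −0.46 for Ankrd1 in SMCs, and with at least 20 cells −0.13 for Ankrd1. Ccn2 in ECs was 0.086 with doublets kept, 0.30 with thinned cells, 0.035 with filterByExpr, 0.24 without shared barcodes and 0.00128 in blood ECs alone. Klf2 in macrophages was −0.062 at a Leiden resolution of 2.

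Leaving out 1 library gave, in FBs, −1.08 to 8.86 for Piezo1, −0.81 to 0.34 for Amotl2, −0.31 to 0.14 for Klf2 and −0.38 to 0.061 for Klf4. In SMCs it gave −0.89 to 9.76 for Piezo1, −0.055 to 12.92 for Wwtr1, −0.49 to 11.77 for Amotl2 and −1.21 to 10.67 for Ankrd1. The values of 8.86 and above left 1 young library with 0 UMIs of the gene, f3m for Piezo1, Wwtr1 and Ankrd1 and 3m for Amotl2. They have no upper bound and are not effect sizes. In ECs, leaving out 1 library gave −0.88 to 0.41 for Yap1, −0.020 to 0.69 for Amotl2 and −0.87 to 0.23 for Ccn2. In macrophages it gave −0.22 to 1.13 for Piezo1, −0.47 to 1.14 for Klf2 and −0.60 to 0.20 for Klf4, and in B cells −0.47 to 1.22 for Klf2. Of the differences between classes, Ccn1 in SMCs minus FBs ran from 1.83 to 3.19 over the alternatives. The smallest adjusted p of any member was 0.0524, for Ccn2 in ECs minus SMCs in the fit without 24m (−2.20 ± 0.39). With all libraries that difference was −1.67 ± 1.48 (edgeR, adjusted p = 0.85). Over the alternatives it ran from −2.20 to −1.12. The highest class of a member was kept by 10 of 10 members without shared barcodes, by 8 at 1000 UMIs and by 7 with cells pooled, where Wwtr1, Klf2 and Ccn1 changed. With 1000 UMIs the age effect could be fitted only in macrophages. No paired analysis was possible because replicate numbers were given in accession order and pair no samples.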
